A study of Homo sapiens with 12 samples.

Results

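The SRC-family kinases are the 7 genes FGR, LYN, BLK, FYN, LCK, SRC and YES1, taken by symbol from the 78892 genes of a table of RNA sequencing counts. All 7 were in the table. They were followed through all 12 libraries of OCI-Ly7, a cell line from a human lymphoma of the diffuse large B-cell kind. FGR was singled out by its rise with 5-azacitidine alone, so its values in that comparison, and in the interaction that contains it, are given here as a description with no test. The other members were taken because they belong to the same family.

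The cells formed 4 groups of 3 libraries. The HDAC3i+AZA group received an HDAC3 inhibitor at 15 µM and 5-azacitidine at 100 nM, the HDAC3i group the inhibitor at 15 µM, the AZA group 5-azacitidine at 100 nM, and the vehicle group neither drug. 5-azacitidine was given daily from day 0 to day 4 and the inhibitor on days 2 and 4, and all cells were analysed on day 5. HDAC3 removes acetyl groups from histones as the enzyme of nuclear co-repressor complexes. 5-azacitidine enters nucleic acids in place of cytidine and traps DNA methyltransferases. The study asked how the inhibitor acts together with 5-azacitidine against this lymphoma. All groups are 1 cell line. Nothing in the labels says that replicate libraries were separate cultures, so the p-values rest on a spread that could be technical.

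SRC-family kinases are tyrosine kinases held at the inner face of the plasma membrane by an N-terminal lipid anchor. Phosphorylation of a tyrosine in the C-terminal tail by CSK folds them into an inactive form, and phosphatases such as CD45 reverse this. In B cells LYN, BLK and FYN phosphorylate the CD79A and CD79B chains of the antigen receptor, and LYN also phosphorylates inhibitory receptors such as CD22 and FCGR2B. LCK is best known as the kinase of the T-cell receptor, and FGR as a kinase of myeloid cells. SRC, YES1 and FYN are expressed in many tissues.

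The 12 libraries held 35947872 to 36337086 counts each. Mitochondrially encoded genes took 12.5% to 15.3% of the counts in HDAC3i+AZA, 12.1% to 13.02% in HDAC3i, 10.01% to 13.8% in AZA and 9.59% to 10.54% in vehicle. B-cell markers were present throughout. MS4A1, which encodes CD20, averaged 1435 CPM in HDAC3i+AZA, 1449 in HDAC3i, 981 in AZA and 871 in vehicle, and CD79A averaged 775 CPM in HDAC3i+AZA, 761 in HDAC3i, 704 in AZA and 650.2 in vehicle. MS4A1, CD79A, CD79B and CD22 rose in HDAC3i+AZA against vehicle, and PAX5 was not called. CPM are counts divided by the library total and scaled to the same sum in every library.

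The upstream sequences of FGR and LCK are shown because FGR is the gene singled out and LCK had the highest level of the family per exon length, and because 5-azacitidine acts on the methylation of CpG sites. Methylation itself was not analysed here. Promoter entries of RefSeq (GRCh38.p14) were found for 4 of the 7 members, FGR, LCK, FYN and YES1. Each line gives the 250 bases before an annotated start, 5′ to 3′ on the gene's strand, with CpG sites in capitals. The FGR windows are chr1:27635186-27635435 and chr1:27626598-27626847 on the minus strand. The LCK windows are chr1:32251015-32251264 and chr1:32273871-32274120 on the plus strand.
FGR, first start: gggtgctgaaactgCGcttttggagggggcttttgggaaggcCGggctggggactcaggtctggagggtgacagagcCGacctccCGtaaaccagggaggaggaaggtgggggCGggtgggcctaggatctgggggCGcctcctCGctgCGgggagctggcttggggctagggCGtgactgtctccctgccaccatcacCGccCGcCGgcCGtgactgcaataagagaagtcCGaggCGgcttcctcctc
FGR, second start: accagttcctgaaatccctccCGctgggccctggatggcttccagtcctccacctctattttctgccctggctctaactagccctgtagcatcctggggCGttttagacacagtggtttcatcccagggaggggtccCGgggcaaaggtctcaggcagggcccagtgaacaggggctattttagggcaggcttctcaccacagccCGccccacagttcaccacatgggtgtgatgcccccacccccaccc
LCK, first start: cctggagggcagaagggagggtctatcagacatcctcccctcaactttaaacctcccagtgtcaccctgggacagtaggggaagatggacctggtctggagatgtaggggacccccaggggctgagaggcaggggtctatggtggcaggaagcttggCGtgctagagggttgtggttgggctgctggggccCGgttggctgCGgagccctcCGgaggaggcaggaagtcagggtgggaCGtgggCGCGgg
LCK, second start: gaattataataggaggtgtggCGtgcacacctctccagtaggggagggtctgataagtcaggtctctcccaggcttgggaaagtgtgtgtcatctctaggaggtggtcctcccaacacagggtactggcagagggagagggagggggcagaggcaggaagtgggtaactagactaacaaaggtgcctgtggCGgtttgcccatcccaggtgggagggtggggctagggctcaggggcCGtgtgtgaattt

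The first FGR window, next to the start of the gene as counted, held 15 CpG sites, and the second held 4. The LCK windows held 7 and 3. Among 35116 such windows of all genes the median was 11 CpG sites, and 57.1% of windows had fewer than the first FGR window. The 4 FYN windows held 20, 45, 6 and 0, and the YES1 window held 32. The 7-base core GAGGAAG of PU.1, a transcription factor of myeloid and B cells, was found 2 times in the first FGR window on either strand and not in the other FGR window or the LCK windows, and 11.2% of all windows held it. The GC box GGGCGG was found 2 times in the first FGR window and 1 time in the second, against 42.6% of all windows with at least 1. Neither the AP-1 motif TGANTCA (6.57% of windows) nor the E-box CACGTG (6.34%) was found in the windows of FGR or LCK. These matches describe letters, not binding.

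FGR was higher in every group that received a drug than in vehicle. Its transcript level was 88.5, 81.7 and 81.8 CPM in the 3 HDAC3i+AZA libraries, 69.4, 63.2 and 71.1 CPM in HDAC3i, 7.64, 8.26 and 9.01 CPM in AZA, and 2.48, 3.21 and 2.02 CPM in vehicle. No 2 groups overlapped, and the order was the same in every library: both drugs above the inhibitor, the inhibitor above 5-azacitidine, and 5-azacitidine above vehicle. The mean was 84.0 ± 3.94 CPM in HDAC3i+AZA and 2.57 ± 0.599 CPM in vehicle (SD, n = 3 each), a ratio of 32.6 (log2 fold change 5.03 ± 0.10 SE, adjusted p = 4.44e-24, edgeR quasi-likelihood test). With the inhibitor alone the mean was 67.9 ± 4.12 CPM, 26.4-fold above vehicle (log2 fold change 4.72 ± 0.10 SE, adjusted p = 4.22e-23). These comparisons share the vehicle libraries, which also took part in choosing FGR, so their p-values are not independent of that choice. In bulk samples, fewer cells of a type and less RNA per cell cannot be told apart.

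**Figure D1:**
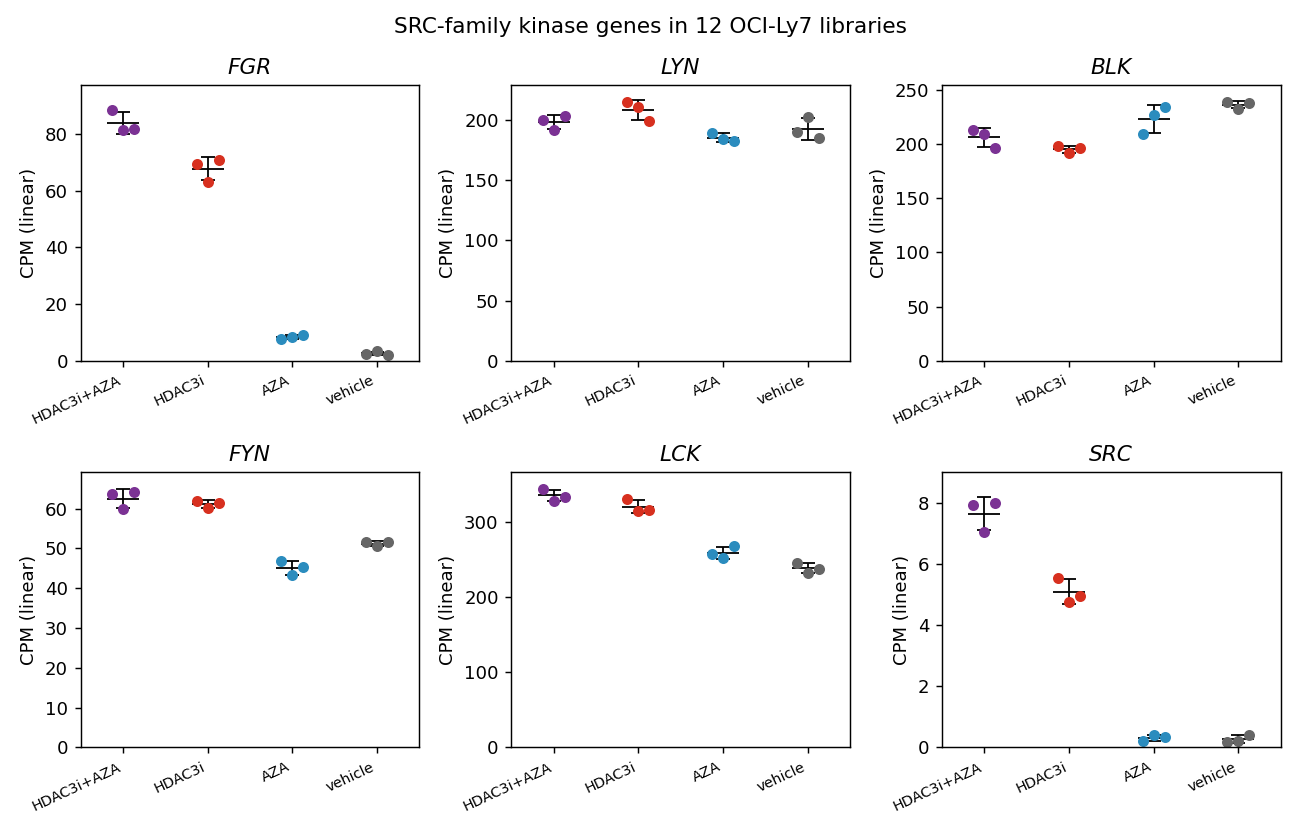
Level of 6 SRC-family genes in CPM (linear axis from 0) in each of the 12 libraries, by group; coloured points are libraries, and black lines the mean ± SD of 3 libraries. FGR lies between 81.7 and 88.5 CPM in HDAC3i+AZA and between 2.02 and 3.21 CPM in vehicle, while LYN stays between 183 and 215 CPM in all groups. YES1, at 0 counts in every library, is not drawn.

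5-azacitidine alone gave FGR a mean of 8.30 ± 0.687 CPM against 2.57 ± 0.599 CPM in vehicle (SD, n = 3 each), a ratio of 3.23 and a log2 fold change of 1.68 ± 0.11 SE. This is the value that chose the gene. The effect of 5-azacitidine in cells that also had the inhibitor was seen in libraries that the choice did not use. There FGR averaged 84.0 CPM in HDAC3i+AZA and 67.9 CPM in HDAC3i, a ratio of 1.24 (log2 fold change 0.32 ± 0.07 SE, adjusted p = 0.00454, edgeR). The libraries of the 2 groups did not overlap. Without HDAC3i replicate 2, the lowest library of its group, the call was lost (log2 fold change 0.27, adjusted p = 0.0544). The interaction, which is the effect of 5-azacitidine with the inhibitor minus that without it, was −1.37 ± 0.13 SE for FGR on the log2 scale. On the linear CPM scale the order is turned: the difference between HDAC3i+AZA and HDAC3i was larger than that between AZA and vehicle. The inhibitor in cells that also had 5-azacitidine raised FGR 10.1-fold (HDAC3i+AZA against AZA, log2 fold change 3.35 ± 0.08 SE, adjusted p = 1.7e-21, edgeR). The AZA libraries took part in choosing FGR, so this p-value is not independent of that choice either.

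SRC (ENSG00000197122), the founding member of the family and a kinase of adhesion and growth factor signalling, lies on the plus strand of chromosome 20 at 37344685 to 37406050. It had few counts without the inhibitor. It had 287, 256 and 290 counts in HDAC3i+AZA (7.94, 7.05 and 8.01 CPM), 201, 173 and 179 counts in HDAC3i, 7, 14 and 12 counts in AZA, and 6, 8 and 15 counts in vehicle. The groups with the inhibitor stood wholly above those without it, and AZA overlapped vehicle. The mean was 7.67 ± 0.539 CPM in HDAC3i+AZA and 0.268 ± 0.131 CPM in vehicle (SD, n = 3 each), a 28.6-fold rise (log2 fold change 4.83 ± 0.22 SE, adjusted p = 2.46e-16, edgeR). With the inhibitor alone it averaged 5.10 ± 0.411 CPM, 19.0-fold above vehicle (4.23 ± 0.23 SE in log2, adjusted p = 1.57e-14). 5-azacitidine alone gave 0.305 CPM against 0.268 CPM in vehicle (log2 fold change 0.18 ± 0.37 SE, adjusted p = 0.842). On the inhibitor it went with 7.67 CPM in HDAC3i+AZA against 5.10 CPM in HDAC3i (log2 fold change 0.60 ± 0.14 SE, adjusted p = 0.00774, edgeR). This call also ended without HDAC3i replicate 2 (log2 fold change 0.55, adjusted p = 0.0517). Without the inhibitor SRC lay near the filter level of 0.277 CPM in 3 libraries. It was above that level there only in AZA replicates 2 (0.388 CPM) and 3 (0.334 CPM) and in vehicle replicate 3 (0.416 CPM). The low end of its fold changes thus rests on few counts.

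LCK (ENSG00000182866) had the highest level of the family per exon length in every group. Its libraries read 344, 329 and 334 CPM in HDAC3i+AZA, 330.3, 315 and 316 CPM in HDAC3i, 257, 252 and 268 CPM in AZA, and 246, 232 and 237 CPM in vehicle. All libraries with the inhibitor lay above all those without it, and AZA lay above vehicle by less than the test could call (log2 fold change 0.12 ± 0.05 SE, adjusted p = 0.155). LCK rose 1.41-fold in HDAC3i+AZA against vehicle (log2 fold change 0.50 ± 0.05 SE, adjusted p = 2.03e-09, edgeR) and 1.34-fold in HDAC3i against vehicle (0.42 ± 0.05, adjusted p = 5.81e-08). Between HDAC3i+AZA and HDAC3i the libraries overlapped (0.08 ± 0.05, adjusted p = 0.412).

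Markers of T and NK cells were also higher with the inhibitor. The 9 markers CD3D, CD3E, CD3G, CD2, CD8A, NKG7, GNLY, KLRD1 and TRAC summed to 241 to 256 CPM in HDAC3i+AZA, 245 to 253 in HDAC3i, 107 to 116 in AZA and 87.7 to 96.1 in vehicle. Nearly all of this was TRAC, the constant gene of the T-cell receptor alpha chain, with a mean of 235 CPM in HDAC3i+AZA and 88.5 CPM in vehicle. CD3E averaged 9.01 CPM in HDAC3i+AZA and 1.02 CPM in vehicle, and CD3D averaged 0.368 CPM in HDAC3i+AZA and 0.0185 CPM in vehicle. CD8A had no counts in any library, and CD2 had none outside HDAC3i+AZA, where it averaged 0.0368 CPM. Of the 9, 5 passed the filter, and all 5 rose in HDAC3i+AZA against vehicle, where 29.6% of all genes were called higher. Of these 5, CD3D and CD3G passed only through groups with a drug, so they could be tested only because they were high there. What part of the LCK rise goes with these markers was not tested.

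FYN (ENSG00000010810, minus strand of chromosome 6 at 111660332 to 111873452), which acts beside LYN in B cells and beside LCK in T cells, rose with the inhibitor. It was slightly lower with 5-azacitidine alone. It read 63.6, 59.8 and 64.2 CPM in HDAC3i+AZA, 62.0, 60.1 and 61.4 CPM in HDAC3i, 46.9, 43.3 and 45.2 CPM in AZA, and 51.5, 50.6 and 51.6 CPM in vehicle. The groups with the inhibitor overlapped each other (HDAC3i+AZA against HDAC3i, log2 fold change 0.04 ± 0.06 SE, adjusted p = 0.759, edgeR). Both stood above vehicle, which stood above AZA. Against vehicle the log2 fold change was 0.29 ± 0.06 SE in HDAC3i+AZA (adjusted p = 0.00012, edgeR) and 0.25 ± 0.06 SE in HDAC3i (adjusted p = 0.000783). In AZA it was −0.19 ± 0.06 SE (adjusted p = 0.0493), a call that was lost in 13 of 22 alternative fits, with log2 fold changes of −0.21 to −0.15 and adjusted p from 0.0502 to 0.232. Adding the inhibitor to 5-azacitidine gave FYN its largest contrast, 62.5 CPM in HDAC3i+AZA against 45.2 CPM in AZA (log2 fold change 0.48 ± 0.06 SE, adjusted p = 1.27e-07).

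BLK (ENSG00000136573, plus strand of chromosome 8 at 11486894 to 11564599), a kinase largely restricted to the B lineage, fell with the inhibitor. It read 213, 209 and 197 CPM in HDAC3i+AZA, 198, 192 and 196 CPM in HDAC3i, 209, 227 and 234 CPM in AZA, and 239, 233 and 239 CPM in vehicle. Both groups with the inhibitor lay below vehicle, and AZA replicate 1 lay within the range of HDAC3i+AZA. The log2 fold change was −0.19 ± 0.05 SE in HDAC3i+AZA (adjusted p = 0.00127, edgeR) and −0.28 ± 0.05 SE in HDAC3i (adjusted p = 2.46e-05), both against vehicle. AZA against vehicle gave −0.09 ± 0.05 SE (adjusted p = 0.295). The BLK counts were whole in 6 of 12 libraries, so a few of its reads also mapped elsewhere, and 1.3% of its exonic bases are shared with another annotated gene.

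LYN (ENSG00000254087, plus strand of chromosome 8 at 55879835 to 56014169), the main SRC-family kinase of B cells, passed the test in none of the 6 comparisons. It averaged 199 ± 6.15 CPM in HDAC3i+AZA, 209 ± 8.20 in HDAC3i, 186 ± 3.56 in AZA and 193 ± 9.18 in vehicle (SD, n = 3 each), with single libraries between 183 and 215 CPM. Its log2 fold changes in edgeR were 0.05 ± 0.05 SE in HDAC3i+AZA against vehicle (adjusted p = 0.468), 0.11 ± 0.05 SE in HDAC3i (adjusted p = 0.0871) and −0.06 ± 0.05 SE in AZA (adjusted p = 0.582). The value for HDAC3i passed the test in 5 of 22 alternative fits, with adjusted p from 0.00373 to 0.0376. LYN also passed in 1 of 22 for HDAC3i+AZA against vehicle (adjusted p = 0.0302) and in 2 of 22 for HDAC3i+AZA against AZA (adjusted p = 0.00456 and 0.0172).

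YES1 had no counts in any of the 12 libraries, which allows up to 3 counts or 0.0826 to 0.0835 CPM per library. Intervals and floors of this kind cover counting error only. The gene (ENSG00000176105) lies on the minus strand of chromosome 18 at 721588 to 812546 and has 5100 bases of exon, of which 6.22% are shared with other annotated genes. ENOSF1, whose start is 99.9 kb downstream of the YES1 start, had 481 to 655 counts per library, and TYMS, 154.9 kb downstream, had 1396 to 2459. The processed pseudogene YES1P1 on chromosome 22 had 0 to 5 counts per library. The genes BOLA2P1 and ADCYAP1, on the other side of YES1, were also listed at 0 in every library. The cause was not tested.

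**Figure D2:**
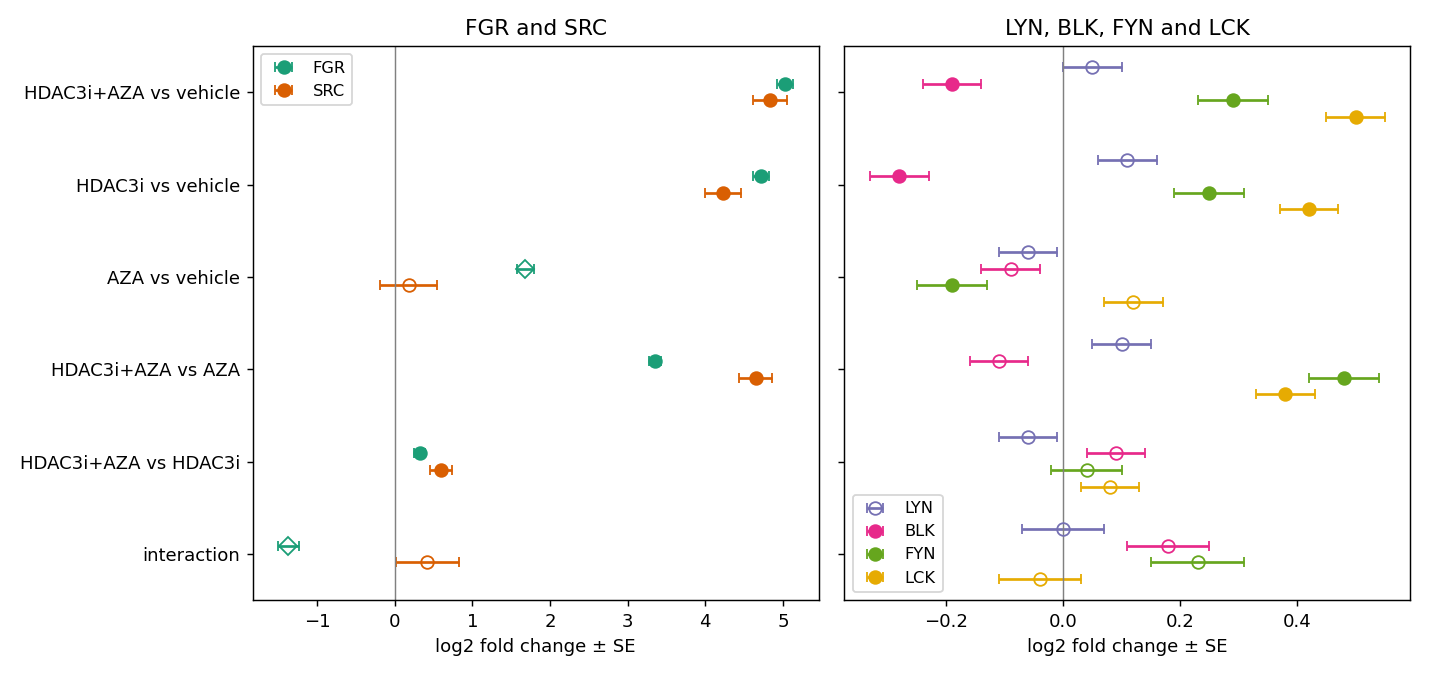
Log2 fold change ± SE (edgeR) of FGR and SRC (left) and of LYN, BLK, FYN and LCK (right, on a narrower axis) in 5 comparisons of groups and in the interaction. Filled circles passed an adjusted p of 0.05 and open circles did not, and open diamonds mark the FGR values given with no test. FGR and SRC lie above 3 in the comparisons that add the inhibitor, and the other members lie between −0.28 and 0.50.

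Of the 7 members 6 passed the filter on low counts. In HDAC3i+AZA against vehicle 4 rose (FGR, SRC, LCK and FYN) and 1 fell (BLK), where 57.1% of all 17869 genes tested were called, 29.6% higher and 27.5% lower. The same 5 were called in HDAC3i against vehicle, beside 51.3% of all genes, 26.4% higher and 24.9% lower. In HDAC3i+AZA against AZA 4 rose and 0 fell, beside 53.8% of all genes, 28.7% higher and 25.1% lower. For BLK, lower there in edgeR only at an unadjusted p under 0.05, DESeq2 made a call and limma voom did not. In these comparisons most tested genes were called, so a count of members says little about the family. SRC lay near the filter level without the inhibitor. In HDAC3i+AZA against HDAC3i 2 members rose, FGR and SRC, beside 7.34% of all genes, 4.51% higher and 2.83% lower. In edgeR 0 members fell there (0 also at an unadjusted p under 0.05, in DESeq2 and in limma voom). In AZA against vehicle FYN fell and FGR was the gene chosen there, beside 9.06% of all genes, 4.31% higher and 4.75% lower, and nothing is read from that count. In the interaction the other 5 tested members were not called (FGR is not counted, since its values chose it), beside 0.716% of all genes, 0.263% higher and 0.453% lower, with adjusted p in edgeR from 0.228 for FYN to 0.995 for LYN. Of these 5, 2 had an unadjusted p under 0.05, and DESeq2 and limma voom called 0. At an adjusted p above the threshold a difference is not shown to be absent.

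Levels of different genes were compared per exon length, as CPM per kb of exon (RPKM). In HDAC3i+AZA the order was LCK at 100.7 ± 2.35 RPKM, BLK at 41.4 ± 1.73, LYN at 32.2 ± 0.997, FGR at 24.8 ± 1.16, FYN at 8.44 ± 0.322 and SRC at 1.07 ± 0.0755 (SD, n = 3). In vehicle it was LCK at 71.6 ± 2.04 RPKM, BLK at 47.5 ± 0.716, LYN at 31.3 ± 1.49, FYN at 6.91 ± 0.0764, FGR at 0.761 ± 0.177 and SRC at 0.0375 ± 0.0184. HDAC3i had the order of HDAC3i+AZA, and AZA that of vehicle. FGR thus stood above FYN in the groups with the inhibitor and below it in the others. In every group the libraries of neighbouring genes in this order did not overlap.

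The members summed to 209 ± 5.01 RPKM in HDAC3i+AZA, 198 ± 4.57 in HDAC3i, 161 ± 4.03 in AZA and 158 ± 1.95 in vehicle (SD, n = 3 each). FGR made up 11.9% ± 0.276 of that sum in HDAC3i+AZA, 10.1% ± 0.549 in HDAC3i, 1.52% ± 0.0908 in AZA and 0.481% ± 0.113 in vehicle. BLK made up 19.8% ± 0.709 in HDAC3i+AZA, 19.8% ± 0.241 in HDAC3i, 27.8% ± 1.15 in AZA and 30.1% ± 0.437 in vehicle. LCK held 48.3% in HDAC3i+AZA, 48.5% in HDAC3i, 48.2% in AZA and 45.3% in vehicle. The shares are descriptions of these transcripts and say nothing of kinase activity.

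**Figure D3:**
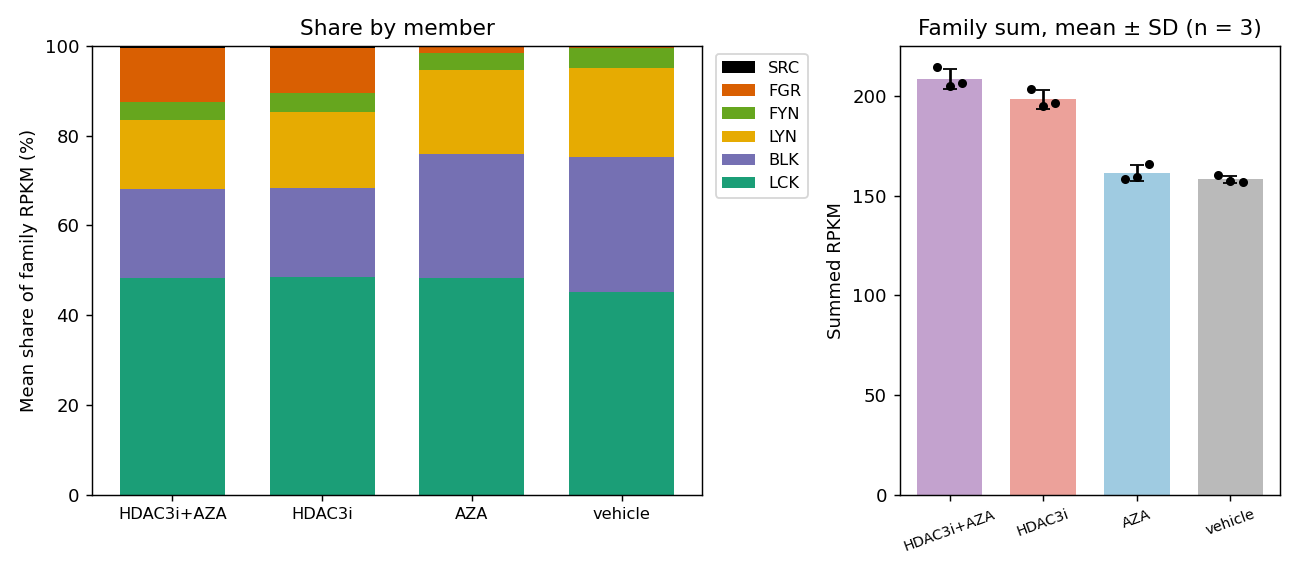
Left, mean share of each member in the summed RPKM of the family, in percent, by group; right, the sum in RPKM, with bars for the mean, lines for the SD and points for the 3 libraries of a group. FGR takes 11.9% in HDAC3i+AZA and 0.481% in vehicle, and the sum is 209 RPKM in HDAC3i+AZA and 158 RPKM in vehicle.

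FRK, a distant relative of epithelial tissues outside the 7 listed genes, was looked up for comparison. It had 96, 90 and 96 counts in HDAC3i+AZA, 98, 82 and 110 in HDAC3i, 25, 53 and 39 in AZA, and 48, 49 and 53 in vehicle. The groups with the inhibitor lay above those without it, and AZA overlapped vehicle. FRK rose to 2.60 ± 0.103 CPM in HDAC3i+AZA, against 1.38 ± 0.0756 CPM in vehicle (SD, n = 3 each; log2 fold change 0.91 ± 0.20 SE, adjusted p = 0.000373, edgeR). In AZA against vehicle it gave −0.36 ± 0.23 SE (adjusted p = 0.377).

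Markers of myeloid cells stayed low. The 9 markers S100A8, S100A9, LYZ, CD14, MPO, CSF1R, FCN1, ELANE and CD68 summed to 4.73 to 4.90 CPM in HDAC3i+AZA, 3.15 to 3.74 in HDAC3i, 1.47 to 1.79 in AZA and 0.859 to 2.24 in vehicle. S100A8 and ELANE had no counts in any library. MPO had a mean of 0.0184 CPM in HDAC3i and no counts in the other groups, and S100A9 had a mean of 0.0185 CPM in HDAC3i+AZA and none elsewhere. Of the 9, 4 passed the filter. In HDAC3i+AZA against vehicle 29.6% of all genes tested were called higher. LYZ (2.18 CPM in HDAC3i+AZA and 0.0185 CPM in vehicle) and CSF1R (0.516 CPM in HDAC3i+AZA and 0.0184 CPM in vehicle) rose in HDAC3i+AZA against vehicle, both tested only through groups with a drug, and CD14 and FCN1 were not called.

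The genes whose profile over the 12 libraries was most like that of FGR were chosen by the root mean square difference of log2 CPM, each gene centred on its own mean. They were CUEDC1 (a difference of 0.22), the formyl peptide receptor gene FPR1 (0.255), the chemokine gene CXCL16 (0.296), the IgG Fc receptor gene FCGR2A (0.317) and NFILZ (0.354). The profile of FGR itself had a root mean square of 2.11 about its mean. CUEDC1 averaged 26.6 CPM in HDAC3i+AZA, 17.2 in HDAC3i, 2.56 in AZA and 0.600 in vehicle. In vehicle FPR1 averaged 0.351 CPM, FCGR2A 0.245, CXCL16 0.101 and NFILZ 0.0553. FCGR2A, CXCL16 and NFILZ thus lay below the filter level of 0.277 CPM there, and the low end of their profiles rests on few counts. FCGR2A has near-identical copies in its gene cluster, so its counts are uncertain. For SRC the closest were FKBP10 (0.274) and UNC5D (0.31), beside a root mean square of 2.16 for SRC. UNC5D averaged 0.0185 CPM in vehicle and 0.0 CPM in AZA, so its profile has the same limit. The small profiles of the other members had closer neighbours, LCP1 (0.0375) and ALOX5 (0.0411) for LCK, DAP and CYFIP2 for FYN, PDHA1 and ATP5F1B for BLK, and IKZF1 and EIF2S3 for LYN.

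FGR lies on chromosome 1 at 27612064 to 27635185 (ENSG00000000938, minus strand, GRCh38), and shares no exonic base with another annotated gene. Of 14 other genes that start within 100 kb of its start, 4 were tested. AHDC1, whose start lies at 30.8 kb from that of FGR (negative distances are upstream), rose in HDAC3i+AZA against vehicle (log2 fold change 1.23 ± 0.08 SE, adjusted p = 5.56e-13, edgeR). IFI6, an interferon-stimulated gene at −37.0 kb, rose by 2.12 ± 0.11 SE (adjusted p = 3.55e-15). LINC02574, at −31.1 kb, which passed the filter only through the groups with the inhibitor, rose by 1.57 ± 0.46 SE (adjusted p = 0.00497), and FAM76A, at −90.8 kb, gave −0.14 ± 0.10 SE (adjusted p = 0.233). The same 3 neighbours rose in HDAC3i against vehicle, LINC02574 with an adjusted p of 0.0478. Of all genes tested, 29.6% were called higher in HDAC3i+AZA against vehicle and 26.4% in HDAC3i against vehicle. In AZA against vehicle 9.06% of all genes were called. With 5-azacitidine alone none of the 4 passed the test in edgeR, DESeq2 or limma voom (0 at an unadjusted p under 0.05 in edgeR), with log2 fold changes of 0.06 to 0.18 and adjusted p from 0.414 to 0.969.

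**Figure D4:**
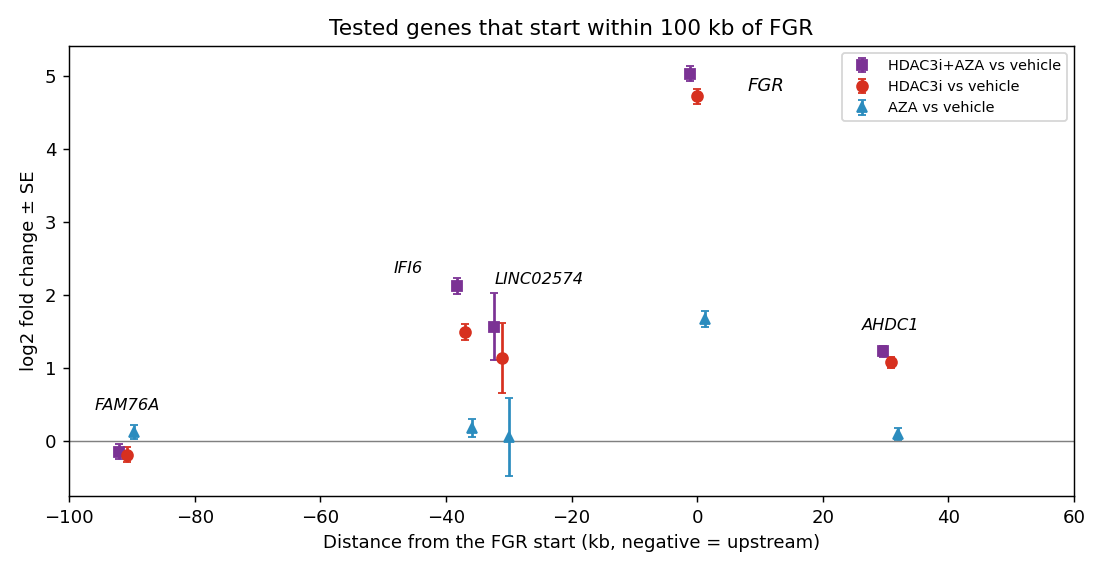
Log2 fold change ± SE (edgeR) of FGR and of the 4 tested genes that start within 100 kb of it, against distance from the FGR start in kb along the direction of FGR; markers of the 3 comparisons at 1 gene are shifted slightly sideways. AHDC1, IFI6 and LINC02574 lie above 1 in both comparisons with the inhibitor and between 0.06 and 0.18 in AZA against vehicle.

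LCK lies on the same chromosome at 32251244 to 32286165. Of 18 genes near its start 8 were tested. In HDAC3i+AZA against vehicle 3 rose and 1 fell, beside 29.6% higher and 27.5% lower of all genes. MARCKSL1, 85.0 kb downstream, rose by 0.82 ± 0.05 SE (adjusted p = 2.67e-13, edgeR) and CCDC28B, at −50.6 kb, by 0.77 ± 0.07 SE (adjusted p = 3.68e-10). FAM167B, at −4.0 kb, rose by 0.83 ± 0.33 SE (adjusted p = 0.0317), and IQCC, at −45.6 kb, gave −0.30 ± 0.13 SE (adjusted p = 0.0452). HDAC1, a class I histone deacetylase gene 40.8 kb downstream of the LCK start, gave −0.02 ± 0.05 SE (adjusted p = 0.689), and TXLNA, EIF3I and TMEM234 were not called either. Near FYN 1 of 3 genes and near SRC 1 of 9 genes were tested. Neither was called in that comparison, with log2 fold changes of 0.63 ± 0.57 SE for ENSG00000289256 near FYN (adjusted p = 0.366) and 0.06 ± 0.07 SE for MANBAL near SRC (adjusted p = 0.5).

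Kinases, phosphatases and scaffolds that set SRC-family activity moved in both directions. Of 20 listed genes 19 were tested. In HDAC3i+AZA against vehicle 8 rose and 6 fell, where 29.6% of all genes were called higher and 27.5% lower. The median log2 change over the 19 was 0.00, beside 0.01 for all genes tested. SRCIN1, a scaffold that restrains SRC, rose most of those named. It averaged 9.53 CPM in HDAC3i+AZA and 1.07 CPM in vehicle (log2 fold change 3.15 ± 0.16 SE, adjusted p = 3.49e-15, edgeR). The phosphatase genes PTPRJ (1.08 ± 0.06 SE, adjusted p = 2.3e-14), PTPN6 (0.89 ± 0.05, adjusted p = 3.63e-14) and PTPN1 (0.49 ± 0.05, adjusted p = 1.79e-08) rose as well. CSK was among the 6 that fell (−0.27 ± 0.05 SE, adjusted p = 0.000109, edgeR). PTPN6 encodes SHP-1, which LYN-dependent inhibitory receptors recruit. In HDAC3i against vehicle 6 rose and 5 fell, beside 26.4% higher and 24.9% lower of all genes. In AZA against vehicle 4 rose and 0 fell in edgeR, beside 4.31% higher and 4.75% lower of all genes (4 were lower at an unadjusted p under 0.05, and DESeq2 and limma voom each called 1 lower). Among those that rose were PTPN6 at 0.30 ± 0.05 SE (adjusted p = 0.000262), PTPRE at 0.54 ± 0.09 (adjusted p = 0.000321) and PTPRJ at 0.19 ± 0.06 (adjusted p = 0.0465).

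Of the listed receptors, adaptors and substrates on which these kinases act in B cells, more rose than fell. Of 30 listed genes, all tested, 23 rose and 3 fell in HDAC3i+AZA against vehicle, beside 29.6% higher and 27.5% lower of all genes. Their median log2 change was 0.36, beside 0.01 for all genes. Of the 30, CD5, BANK1 and DOK2 passed the filter only through groups with a drug, so they could be tested only because they were high there. Like the other lists, this one was chosen with earlier results of these data known. Its counts and median describe the list and do not test it. FCGR2B, the inhibitory IgG receptor whose tail LYN phosphorylates, rose to 100.8 CPM in HDAC3i+AZA, against 16.5 CPM in vehicle (2.61 ± 0.06 SE, adjusted p = 7.05e-22, edgeR), with the same uncertainty as FCGR2A from near-identical copies. The inhibitory receptor genes LILRB1 (2.82 ± 0.13, adjusted p = 3.14e-16) and LAIR1 (2.40 ± 0.11, adjusted p = 4.37e-16) rose, as did the adaptor gene LAT2 (0.98 ± 0.06, adjusted p = 1.72e-13). In HDAC3i against vehicle 20 rose and 4 fell, beside 26.4% higher and 24.9% lower of all genes. In AZA against vehicle 5 rose and 2 fell, beside 4.31% higher and 4.75% lower, with FCGR2B at 0.66 ± 0.07 SE (adjusted p = 1.81e-07), CD72 at 0.41 ± 0.05 (adjusted p = 1.02e-05) and VAV2 at −0.43 ± 0.06 (adjusted p = 1.54e-05).

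Among 21 other cytoplasmic tyrosine kinase genes 19 were tested, and 10 rose and 2 fell in HDAC3i+AZA against vehicle, beside 29.6% higher and 27.5% lower of all genes (median log2 change 0.25, beside 0.01 for all genes). These included FER at 1.52 ± 0.12 SE (adjusted p = 3.83e-11, edgeR) and FES at 0.97 ± 0.11 (adjusted p = 1.84e-08). Of the 19, 3 passed the filter only through groups with a drug. This list too was chosen with earlier results of these data known. ZAP70, the kinase that acts after LCK in T cells, fell (log2 fold change −0.62 ± 0.07 SE, adjusted p = 3.85e-08), with 25.2 CPM in HDAC3i+AZA and 38.9 CPM in vehicle. In AZA against vehicle 1 rose and 4 fell, beside 4.31% higher and 4.75% lower of all genes, among them ABL1 at −0.32 ± 0.07 SE (adjusted p = 0.00269), TNK2 at −0.26 ± 0.06 (adjusted p = 0.00528) and ZAP70 at −0.31 ± 0.07 (adjusted p = 0.00539).

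**Figure D5:**
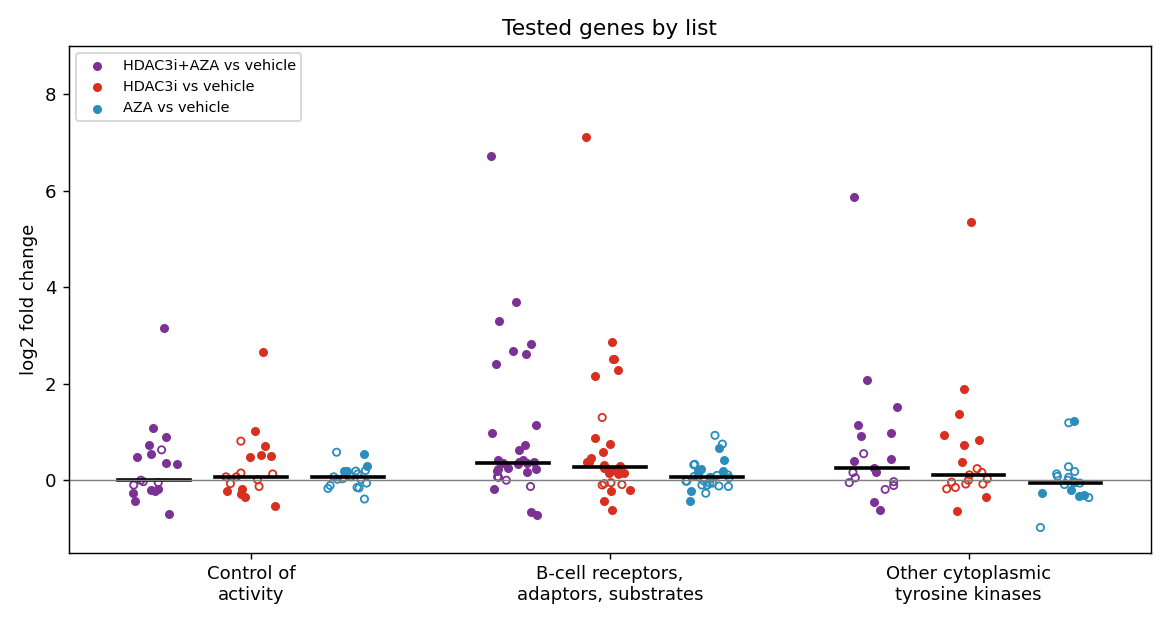
Log2 fold change (edgeR) of the tested genes of 3 lists around the family in the 3 comparisons with vehicle. Filled points passed an adjusted p of 0.05, open points did not, and black bars are medians of the points drawn; BANK1, at 0 counts in AZA, is left out of AZA against vehicle. The list of B-cell receptors, adaptors and substrates has 23 genes higher and 3 lower in HDAC3i+AZA against vehicle. Of all genes tested 29.6% were called higher there and 27.5% lower.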

How the data were processed

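OCI-Ly7 cells gave 12 libraries of poly(A) RNA, and the authors deposited 1 table of expected counts per gene. Per the file headers, the authors made these estimated counts with featureCounts 2.1.1 without regard to strand, on paired reads and release 114 of the GRCh38 annotation, with fractions for reads that map to several places. The submitters' processing notes name STAR 2.7.11b, Subread 2.1.2, cutadapt 5.1, bcl2fastq 2.17.1.14 and FastQC 12.1. Whether reads or pairs were counted is not given in the sources used here. Of all values 96.9% were whole within 1e-06. Gene symbols came from the table of names for 61461 of 78892 IDs. Reads of a gene and of an overlapping or antisense gene cannot be told apart without strand.

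Counts were rounded and tested in R 4.3.3 with the quasi-likelihood test of edgeR 4.0.16 in a fit of all 12 libraries, with 1 mean per group, TMM scaling and filterByExpr (0.277 CPM in 3 libraries), which kept 17869 genes. Two-sided p-values were adjusted over all of these by the Benjamini-Hochberg method, and genes under 0.05 were called. SE is the log2 fold change divided by the root of the F statistic. Reported CPM used library totals, 35947872 to 36337086 counts, and RPKM the exonic length of the table; log2 CPM for likeness had a prior count of 2. The common biological coefficient of variation was 6.05%, which sets the precision of well-expressed genes. The fit was tested on simulated data. Alternatives were other scalings and filters, DESeq2 1.42.0, limma 3.58.1 (voom), fewer libraries and replicate blocks.

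The members and the gene lists were chosen with earlier results of these data known. Named genes were all members, FRK, up to 4 called genes per list by smallest adjusted p in HDAC3i+AZA against vehicle and up to 3 in AZA against vehicle, the closest profiles, the tested neighbours within 100 kb of the start of members called in 3 or more comparisons, and the markers by sums, counts and genes at 0. FRK, BOLA2P1, ADCYAP1, ENOSF1, TYMS, YES1P1 and single markers were named for their level, and CSK for its part in the opening description of the family. Each library was counted as a sample. The closest libraries of a group differed by more than sampling noise (chi-square per degree of freedom 3.37), which does not show that they were separate cultures. AZA replicate 1 differed most from its group, at 25.74 from replicate 2 and 23.25 from replicate 3. Between AZA replicates 2 and 3 the value was 3.92. Mitochondrial genes took 13.8% of counts in AZA replicate 1, 10.0% in replicate 2 and 10.2% in replicate 3. Some genes that these rules name are not reported here.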

Additional observations from a re-analysis of the deposited data

Results flagged for a closer look

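A few genes had an effect of 5-azacitidine that differed between cells with and without the inhibitor. For FGR the log2 effect on the inhibitor minus the log2 effect alone was −1.37, given without a test because its effect alone chose the gene. For FCGR2B this difference was −0.56 ± 0.09 SE (adjusted p = 0.00169, edgeR), and for INPP5D, a phosphatase gene that acts with FCGR2B, it was 0.32 ± 0.07 SE (adjusted p = 0.0405). The counts of FCGR2B are uncertain because of near-identical copies. In the list of 30 B-cell receptors, adaptors and substrates 1 was called higher and 1 lower in the interaction, beside 0.716% of all genes. Calls over all genes there ran from 35 to 689 when single libraries were left out. FCGR2B and INPP5D were not followed through the alternative fits, and INPP5D lies near the threshold.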

How the results depend on the processing

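Of 786 log2 fold changes of the members under 22 alternatives, 749 kept their direction and their side of the threshold. The call of FYN in AZA against vehicle was lost, so that the count, which holds FGR and is given for completeness only, was 1 instead of 2, with DESeq2 size factors in edgeR, with no filter on low counts, with limma voom, with only the groups compared and with the library name number as a replicate block, and 1 to 2 when single libraries were left out. In HDAC3i+AZA against HDAC3i the count ran from 0 to 2, with 0 without HDAC3i replicate 2. Leaving out single libraries gave 5 to 5 calls in HDAC3i+AZA against vehicle, 5 to 6 in HDAC3i against vehicle and 4 to 5 in HDAC3i+AZA against AZA. Some values that were never called changed sign. SRC in AZA against vehicle ran from −0.07 to 0.65 when single libraries were left out, below 0 without AZA replicate 2 or vehicle replicate 1, and its interaction ran from −0.06 to 0.67, below 0 without vehicle replicate 3. The LYN interaction, −0.00 in the fit of all libraries, ran from −0.04 to 0.03 without single libraries, and was 0.00 with the library name block and 0.01 without the 2 libraries of highest mitochondrial share. Same-numbered libraries did not deviate together (correlations of −0.0591 to 0.0665 by title number, −0.0342 to 0.0665 by library name number, and −0.0648 to 0.0607 between different numbers). No pairing by these numbers was seen, which does not show that there was none. A block by title number did not end the call of FYN in AZA against vehicle (count of 2). Over all genes the calls in AZA against vehicle were 1619, against 1054 without AZA replicate 2 and 1017 without vehicle replicate 1. In HDAC3i+AZA against HDAC3i they were 1312, against 690 to 839 without HDAC3i+AZA replicate 1 or 3 or any HDAC3i replicate. In the interaction they were 128, against 35 to 689 when single libraries were left out, 314 with no filter, 204 with a stricter filter, 379 in DESeq2 and 227 with the library name block. The causes were not tested. Depth limits SRC without the inhibitor.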
